A study of Homo sapiens with 33 samples.

Results

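Expression of 10 genes of the circadian clock was followed through 33 RNA-seq libraries from acute lymphoblastic leukaemia (ALL) cell lines, to describe how glucocorticoids act on the clock. The 10 genes, PER1, PER2, PER3, CRY1, CRY2, CLOCK, ARNTL (also called BMAL1), NR1D1, NR1D2 and DBP, were chosen by name out of 62446 gene rows, and each matched 1 row. All libraries came from cell lines in 11 groups of 3. Nalm6, a B-lineage ALL line, was sequenced untreated (Nalm6_Ctrl), after 0.5 µM CHIR-99021 (an inhibitor of GSK3 used as a Wnt agonist) and after 5 µM of the glucocorticoid prednisolone. A separately titled Nalm6 set held untreated cells (Nalm6_Dex_Ctrl) and cells given 100 nM of the glucocorticoid dexamethasone. TLE1 KO cells, Nalm6 cells with a knockout of the transcriptional co-repressor TLE1, were sequenced untreated and after 5 µM prednisolone or 100 nM dexamethasone. CEM, a T-lineage ALL line, was sequenced untreated and after 2 µM CHIR-99021 or 10 µM prednisolone. Every treatment lasted 24 h, so each group shows 1 time point, and the clock time of harvest is not given. Nalm6 and TLE1 KO cells were kept in medium with charcoal-stripped serum. The medium of CEM, the number of knockout clones and any synchronisation of the cells are not given. The treatment text in the labels gives prednisolone to Nalm6 and CHIR-99021 to TLE1 KO cells, whereas the design text has these the other way round; the sample titles, which name both drugs for Nalm6 and no CHIR-99021 for TLE1 KO, were followed.

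The clock is a loop of transcription factors that feed back on themselves. CLOCK and ARNTL form a dimer that binds E-box elements and switches on the PER and CRY genes, whose proteins return to the nucleus and block that dimer. In a further loop the same dimer drives NR1D1 and NR1D2 (REV-ERBα and REV-ERBβ), nuclear receptors that repress ARNTL and compete with the activating ROR receptors for their elements. DBP is an output of the dimer that binds D-box elements. Glucocorticoids act through the receptor NR3C1 and are known to reset peripheral clocks, with PER1 and PER2 as known direct targets of the receptor.

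In GENCODE 29 on GRCh38, PER1 on chromosome 17 from 8140472 to 8156506 (minus strand) and NR1D1 on chromosome 17 from 40092787 to 40100725 (minus strand) share a chromosome. The other PER genes are PER2 on chromosome 2 from 238244038 to 238290102 (minus strand) and PER3 on chromosome 1 from 7784320 to 7845177 (plus strand). The CRY genes are CRY1 on chromosome 12 from 106991364 to 107093829 (minus strand) and CRY2 on chromosome 11 from 45847118 to 45883248 (plus strand). The activators are CLOCK on chromosome 4 from 55427903 to 55547138 (minus strand) and ARNTL on chromosome 11 from 13276652 to 13387266 (plus strand), and the remaining members NR1D2 on chromosome 3 from 23945260 to 23980618 (plus strand) and DBP on chromosome 19 from 48630030 to 48637438 (minus strand). The submitters' processing notes name hg19, so these places name the genes and were not used for counting.

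The promoter windows of the genes that moved most, or that differ most in their clock elements, are shown here because the loop is known to act through these elements. Each runs from 250 bases before to 50 bases after the RefSeq start on GRCh38.p14, 5′ to 3′ on the strand of the gene, and capitals mark an E-box (CACGTG), an E′-box (CACGTT) or a D-box (TTATGTAA) on either strand.
PER1, chr17:8152355-8152654 (minus strand): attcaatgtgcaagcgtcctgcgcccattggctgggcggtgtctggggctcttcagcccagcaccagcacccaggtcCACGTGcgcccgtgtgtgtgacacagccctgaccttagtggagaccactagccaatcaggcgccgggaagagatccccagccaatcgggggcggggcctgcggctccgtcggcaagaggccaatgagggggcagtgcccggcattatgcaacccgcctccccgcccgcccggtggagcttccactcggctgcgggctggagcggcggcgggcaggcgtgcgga
PER2, chr2:238288561-238288860 (minus strand): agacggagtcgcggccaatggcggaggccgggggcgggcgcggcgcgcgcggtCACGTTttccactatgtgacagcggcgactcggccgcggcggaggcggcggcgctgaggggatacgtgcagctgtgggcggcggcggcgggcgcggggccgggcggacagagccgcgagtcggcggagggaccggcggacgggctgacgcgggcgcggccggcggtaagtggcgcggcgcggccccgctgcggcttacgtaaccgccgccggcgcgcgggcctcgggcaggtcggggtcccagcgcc
PER3, chr1:7784041-7784340 (plus strand): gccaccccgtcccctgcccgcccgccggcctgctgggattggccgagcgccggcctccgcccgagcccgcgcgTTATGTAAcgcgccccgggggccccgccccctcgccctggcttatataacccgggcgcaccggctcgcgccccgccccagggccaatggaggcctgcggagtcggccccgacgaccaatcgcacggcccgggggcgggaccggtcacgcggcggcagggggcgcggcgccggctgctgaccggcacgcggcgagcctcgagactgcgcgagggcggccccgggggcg
NR1D1, chr17:40100540-40100839 (minus strand): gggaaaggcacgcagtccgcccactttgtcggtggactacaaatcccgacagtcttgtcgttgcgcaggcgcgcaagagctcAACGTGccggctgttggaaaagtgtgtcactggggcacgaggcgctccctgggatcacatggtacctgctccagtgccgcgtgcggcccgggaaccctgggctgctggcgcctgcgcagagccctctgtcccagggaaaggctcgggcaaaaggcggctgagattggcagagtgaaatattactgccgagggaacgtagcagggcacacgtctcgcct
NR1D2, chr3:23945871-23946170 (plus strand): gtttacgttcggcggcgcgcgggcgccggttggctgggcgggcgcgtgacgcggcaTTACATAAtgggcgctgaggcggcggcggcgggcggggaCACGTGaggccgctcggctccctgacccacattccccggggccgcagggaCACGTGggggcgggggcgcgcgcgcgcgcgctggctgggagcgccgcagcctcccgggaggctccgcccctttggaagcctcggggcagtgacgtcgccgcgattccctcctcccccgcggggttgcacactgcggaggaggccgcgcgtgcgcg
DBP, chr19:48637330-48637629 (minus strand): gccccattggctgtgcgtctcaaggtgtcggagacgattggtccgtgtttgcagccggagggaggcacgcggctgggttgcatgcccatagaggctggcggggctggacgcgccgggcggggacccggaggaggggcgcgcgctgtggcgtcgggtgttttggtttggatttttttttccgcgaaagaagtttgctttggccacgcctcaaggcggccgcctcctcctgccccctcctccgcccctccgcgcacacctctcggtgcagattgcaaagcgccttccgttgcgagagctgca
All 10 members had at least 1 window, 15 windows in all. A member was counted if any of its windows held the letters, whereas the shares given beside are of single windows, so these are unlike units. The E-box letters CACGTG were in windows of 2 members: 173 bases before the start of PER1, and 155 and 105 bases before 1 of the 2 starts of NR1D2. They were in 7.26% of all 35116 windows of this length. The E′-box letters CACGTT were in windows of 5 members, PER2, CRY1, CRY2, CLOCK and NR1D1, against 5.34% of all windows. CRY2 and CLOCK held them in 1 of their 2 windows each. The D-box letters TTATGTAA were in 1 of the 2 windows each of PER3 and NR1D2, against 0.886% of all windows. The hexamer AGGTCA, read by ROR and REV-ERB receptors, was in windows of PER1, CRY2 and ARNTL, against 13.8% of all windows. No member's window held TGTTCT, the hexamer of a glucocorticoid receptor site, which 14.8% of all windows held, or the cyclic AMP element TGACGTCA (1.85%). The DBP window held none of these letters, which says only that they are not in these 300 bases.

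Sense-strand gene totals ran from 25.3 to 61.9 times 1000000 counts per library, so that 3 counts stood for 0.0484 to 0.119 CPM, counts scaled to a library total of 1000000. The lines carried the markers of their labels: 6 B-lineage markers summed to 1399 to 1860 CPM in Nalm6, 1336 to 1562 in TLE1 KO and 38.2 to 79.0 in CEM. Of these, CD79A overlapped between the lines, at 21.3 to 60.5 CPM in CEM and 51.3 to 247 in Nalm6 and TLE1 KO. The other B-lineage markers did not overlap. The sum of 6 T-lineage markers was 4.75 to 7.17 CPM in Nalm6, 2.92 to 5.53 in TLE1 KO and 1680 to 1884 in CEM. TLE1 itself, checked first because it is the gene knocked out, was at 25.4, 24.0 and 24.0 CPM in untreated TLE1 KO cells against 30.2, 34.0 and 31.8 in Nalm6_Ctrl. Its transcript was therefore still counted in cells labelled TLE1 KO, and the files do not show where the gene was cut. TLE1 also rose in Nalm6, by 1.80 on the log2 scale with prednisolone and by 2.25 with dexamethasone. With prednisolone its log2 fold change was 1.31 in TLE1 KO and 0.07 in CEM. The groups Nalm6_Ctrl, Nalm6 with CHIR-99021 or prednisolone, and TLE1 KO untreated or with prednisolone share 1 naming series of files, and the others belong to another. TLE1 KO with dexamethasone has no untreated libraries titled as its own, so set and treatment cannot be told apart there. As bulk values, CPM are shares of a library: less RNA of a gene per cell and fewer cells that make it cannot be told apart.

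The response to glucocorticoid was first asked for each member against untreated cells of its own line and set, in 4 comparisons that share no library: prednisolone in Nalm6, dexamethasone in Nalm6, prednisolone in TLE1 KO and prednisolone in CEM. PER1 rose in all 4, while PER2, PER3 and DBP fell in all 4. NR1D1 fell in 3 and CRY2 rose in 3, CLOCK, ARNTL and NR1D2 each rose in 1, and CRY1 was called in none. A call means an adjusted p under 0.05 in edgeR's quasi-likelihood test, with Benjamini-Hochberg adjustment over all genes tested in that comparison, and this holds for every adjusted p given here. With prednisolone in Nalm6, 7 of the 10 members were called, 3 higher and 4 lower, where 54.8% of all genes tested were called (28.7% higher, 26.1% lower). With dexamethasone in Nalm6, 7 of 10 were called, 3 higher and 4 lower, against 60.5% of all genes (30.2% higher, 30.2% lower). In TLE1 KO with prednisolone it was 7 of 10, 3 higher and 4 lower, against 41.7% (19.8% higher, 21.9% lower), and in CEM with prednisolone 4 of 9 tested, 1 higher and 3 lower, against 45.1% (22.3% higher, 22.8% lower). With so many genes called in each comparison, nothing particular to the members is read from these counts. The same holds for calls in 1 direction in all 4, for which no share over all genes is given. A change of at least 1 on the log2 scale was reached by PER1 and DBP with each drug in Nalm6, where 8.78% of genes with prednisolone and 11.2% with dexamethasone were called at that size.

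**Figure D1:**
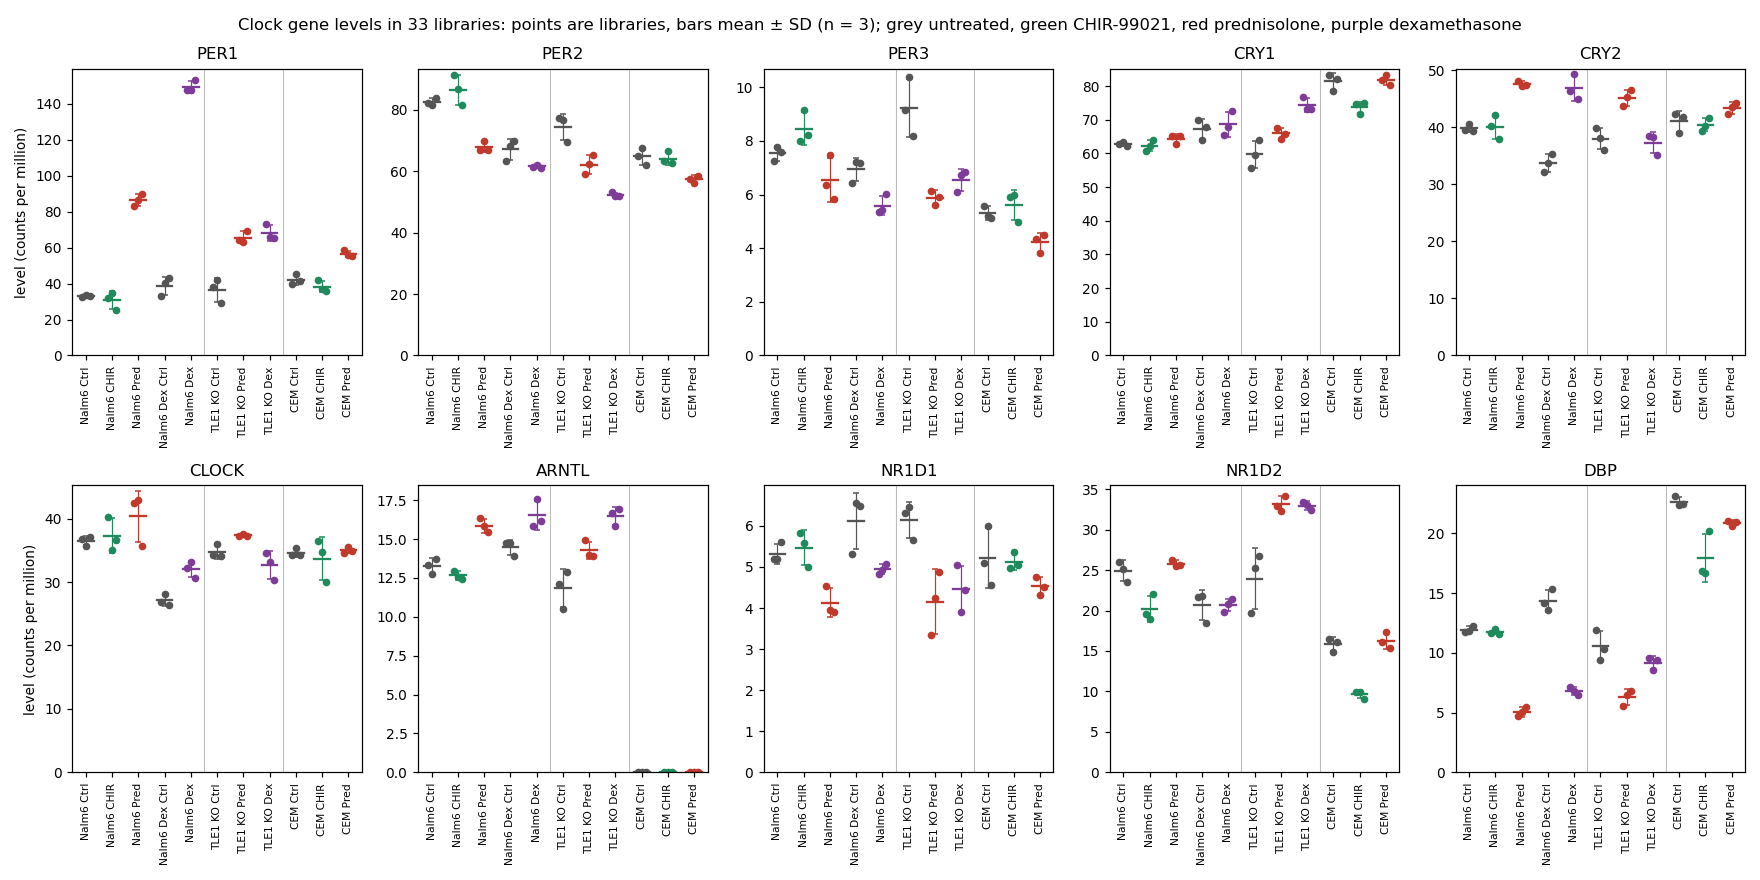
Levels of the 10 clock genes in CPM (y axis, linear, from 0) in each of 33 libraries, by group (x axis); points are libraries and bars mean ± SD, n = 3. PER1 stands at 147 to 153 in dexamethasone-treated Nalm6 against 33.3 to 43.0 in its untreated cells, DBP is lowest in prednisolone-treated Nalm6, and ARNTL is at or next to 0 in all CEM libraries.

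Among the PER genes, which encode the inhibitory arm of the loop, PER1 and its paralogues moved apart. PER1 was at 32.7, 33.4 and 32.8 CPM in Nalm6_Ctrl and at 83.0, 86.2 and 90.1 CPM after prednisolone. All 3 treated libraries lay above all untreated ones, a log2 fold change of 1.36 ± 0.04 (SE, adjusted p = 6.95e-14). With 100 nM dexamethasone PER1 went from 33.3, 40.2 and 43.0 CPM to 147, 148 and 153 CPM, the highest PER1 level of the 11 groups and a log2 fold change of 1.91 ± 0.07 (adjusted p = 1.08e-11). The drugs were given at different molar doses to different sets of cells, so these values stand side by side without a test between them. In TLE1 KO cells PER1 was at 37.8, 42.2 and 29.4 CPM untreated and at 64.0, 63.3 and 69.5 CPM after prednisolone, a log2 fold change of 0.81 ± 0.11 (adjusted p = 0.00019). In CEM it was at 39.5, 45.1 and 41.5 CPM untreated and at 58.5, 55.7 and 55.4 CPM after prednisolone, a log2 fold change of 0.40 ± 0.05 (adjusted p = 1.5e-06). Treated and untreated libraries did not overlap in any of the 4 comparisons, and the untreated libraries of all lines lay within 29.4 to 45.1 CPM.

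PER2 went the other way by a smaller amount. It was at 82.3, 81.7 and 84.0 CPM in Nalm6_Ctrl and at 66.9, 69.7 and 67.0 CPM after prednisolone, a log2 fold change of -0.31 ± 0.04 (adjusted p = 1.87e-06). With dexamethasone it was at 61.5, 62.1 and 61.0 CPM against 63.2, 68.2 and 69.9 untreated, a fall of -0.16 on the log2 scale (adjusted p = 0.00511). In TLE1 KO with prednisolone it was at 59.0, 62.2 and 65.1 CPM against 77.2, 76.5 and 69.6 untreated (log2 fold change -0.30, adjusted p = 0.00287). In CEM it was at 57.5, 56.2 and 58.6 CPM against 65.0, 67.5 and 62.1 (-0.21, adjusted p = 0.000139). The groups were apart each time, with the smallest gap in dexamethasone-treated Nalm6. PER3, the least abundant PER gene, was at 7.23, 7.77 and 7.59 CPM in Nalm6_Ctrl and at 6.35, 7.46 and 5.82 CPM after prednisolone. These 2 groups overlapped, and the log2 fold change of -0.23 (adjusted p = 0.0363) was no longer called in 6 of 13 alternatives: with DESeq2 (adjusted p = 0.0539), with unstranded counts (0.313), or without prednisolone replicate 1 or 3 or Nalm6_Ctrl replicate 2 or 3 (0.0597, 0.111, 0.0994 and 0.0893). PER3 fell by 0.34 on the log2 scale with dexamethasone in Nalm6 (adjusted p = 0.00391), by 0.69 with prednisolone in TLE1 KO (0.000803) and by 0.37 with prednisolone in CEM (0.0043). Its level in TLE1 KO went from 9.14, 10.4 and 8.19 CPM to 6.15, 5.61 and 5.89 CPM, with no overlap.

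The opposite moves changed which PER transcript led. Between genes, levels are compared per kilobase of the longest coding transcript. PER1 over PER2 on that scale was 0.541 ± 0.012 (SD, n = 3) in Nalm6_Ctrl and 1.73 ± 0.082 after prednisolone. It went from 0.783 ± 0.062 to 3.29 ± 0.097 with dexamethasone in Nalm6, from 0.661 ± 0.088 to 1.43 ± 0.047 with prednisolone in TLE1 KO, and from 0.880 ± 0.047 to 1.34 ± 0.048 with prednisolone in CEM. PER2 was thus the higher of the pair in every untreated group and PER1 in every glucocorticoid group on this scale. Per kilobase of all annotated exons the order of the pair was less clear in 2 of these groups: their libraries overlapped in prednisolone-treated CEM, with means of 8.07 CPM per kilobase for PER1 and 8.35 for PER2, and in prednisolone-treated TLE1 KO, with 9.37 and 9.04.

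Of the CRY genes, partners of PER in the repressor complex, CRY2 rose in 3 comparisons and CRY1 was called in none. CRY1 was at 62.8, 63.5 and 62.1 CPM in Nalm6_Ctrl and at 65.3, 62.7 and 65.3 CPM after prednisolone, with overlapping libraries and a log2 fold change of 0.01 (adjusted p = 0.889). Its log2 fold changes in the 4 comparisons lay between -0.02 and 0.10. Per kilobase of the longest coding transcript CRY1 was the highest of the 10 in every group except dexamethasone-treated Nalm6, where PER1 stood above it (31.8 against 21.0 CPM per kilobase). Per kilobase of all annotated exons, PER2 also stood above CRY1 in CHIR-99021-treated Nalm6 (12.6 against 12.3), with overlapping libraries. On that scale CRY1 overlapped PER2 in untreated TLE1 KO and PER1 in prednisolone-treated Nalm6. CRY2 rose from 39.5, 40.6 and 39.3 CPM to 48.1, 47.2 and 47.4 CPM with prednisolone in Nalm6, with no overlap (log2 fold change 0.23 ± 0.04, adjusted p = 0.000129). With dexamethasone it rose from 32.1, 33.7 and 35.3 CPM to 46.3, 49.4 and 44.9 CPM (0.44 ± 0.05, adjusted p = 2.37e-06). In TLE1 KO with prednisolone its groups were apart, at 43.7, 45.2 and 46.5 CPM against 39.8, 38.1 and 36.0 (0.21, adjusted p = 0.0189). That call was lost with the replicate block (adjusted p = 0.0638) and without prednisolone replicate 2 or 3 or untreated replicate 2 (0.0606, 0.0867 and 0.0578). In CEM CRY2 was at 42.3, 43.5 and 44.3 CPM against 42.3, 39.0 and 41.8 untreated, groups that met at 42.3, and the log2 fold change of 0.05 was not called.

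The activators shifted by less than PER1 or DBP. ARNTL, the partner of CLOCK, rose from 13.4, 12.8 and 13.7 CPM to 16.3, 15.8 and 15.4 CPM with prednisolone in Nalm6, with no overlap (log2 fold change 0.22 ± 0.06, adjusted p = 0.00341). With dexamethasone in Nalm6 it was at 15.8, 17.6 and 16.1 CPM against 14.7, 14.8 and 13.9, and the log2 fold change of 0.15 missed the threshold (adjusted p = 0.0563). In TLE1 KO with prednisolone it was at 14.9, 14.0 and 13.9 CPM against 12.1, 10.5 and 12.9 (0.23, adjusted p = 0.0896). The libraries did not overlap in either case. CLOCK rose with dexamethasone in Nalm6, from 26.8, 28.1 and 26.4 CPM to 32.2, 33.2 and 30.7 CPM (0.20, adjusted p = 0.00261). The untreated cells of that set had the lowest CLOCK mean of the 11 groups, 27.1 CPM against 36.5 in Nalm6_Ctrl. The dexamethasone libraries also lay below those of Nalm6_Ctrl. With prednisolone in Nalm6 CLOCK was at 42.4, 42.9 and 35.7 CPM against 36.8, 35.7 and 37.0, and the third treated library lay among the untreated ones. The log2 fold change of 0.11 was not called (adjusted p = 0.115), but without that library it was 0.16 (adjusted p = 0.00616).

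Of the REV-ERB receptors, which repress ARNTL, NR1D1 fell in 3 of the 4 comparisons and NR1D2 rose in 1. NR1D1 was at 5.18, 5.18 and 5.61 CPM in Nalm6_Ctrl and at 4.55, 3.95 and 3.91 CPM after prednisolone, with no overlap (log2 fold change -0.41 ± 0.10, adjusted p = 0.00183). With dexamethasone it fell from 5.33, 6.55 and 6.48 CPM to 4.83, 4.92 and 5.08 CPM (-0.33, adjusted p = 0.00828), and in TLE1 KO with prednisolone from 6.32, 6.45 and 5.65 CPM to 3.33, 4.25 and 4.89 CPM (-0.61 ± 0.14, adjusted p = 0.00591). In CEM it was at 4.77, 4.32 and 4.50 CPM against 5.09, 5.99 and 4.55, overlapping, with a log2 fold change of -0.24 (adjusted p = 0.0765). NR1D1 shares 263 exon bases with THRA, a thyroid hormone receptor gene read from the opposite strand. Of the counts at NR1D1 on either strand, 30.9% were on the other strand. THRA rose by 0.44 with prednisolone and by 0.87 with dexamethasone in Nalm6, against the direction of NR1D1. On unstranded counts the fall of NR1D1 with dexamethasone was -0.21 and lost its call (adjusted p = 0.0652). NR1D2 was at 26.0, 25.2 and 23.5 CPM in Nalm6_Ctrl and at 26.3, 25.5 and 25.7 CPM after prednisolone (0.02, adjusted p = 0.755). In TLE1 KO it rose from 19.7, 25.3 and 26.8 CPM to 32.9, 32.4 and 34.2 CPM with prednisolone (0.43 ± 0.11, adjusted p = 0.0091), with no overlap.

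DBP, the D-box activator at the output of the loop, showed the largest fall of the 10 in Nalm6 and in TLE1 KO with prednisolone. It went from 11.7, 11.8 and 12.3 CPM to 4.68, 5.05 and 5.51 CPM with prednisolone in Nalm6 (log2 fold change -1.25 ± 0.08, adjusted p = 5.03e-10). With dexamethasone it went from 14.2, 13.6 and 15.4 CPM to 7.13, 6.82 and 6.50 CPM (-1.11 ± 0.07, adjusted p = 9.78e-09). In TLE1 KO it went from 11.9, 9.42 and 10.4 CPM to 5.58, 6.50 and 6.83 CPM with prednisolone (-0.79 ± 0.12, adjusted p = 0.000411). None of these groups overlapped. In CEM, where DBP was higher to begin with, it was at 21.1, 20.7 and 21.0 CPM after prednisolone against 23.1, 22.4 and 22.5 CPM untreated. The groups were again apart, but the log2 fold change was only -0.15 ± 0.05 (adjusted p = 0.0154). The CEM call was lost with DESeq2 (adjusted p = 0.0509), with all 11 groups in 1 fit (0.071) and without CEM_Ctrl replicate 1 (0.0526). DBP shares 661 exon bases with SPHK2, a sphingosine kinase gene on the opposite strand, and 34.6% of the counts at DBP on either strand were on the other one. SPHK2 itself had log2 fold changes of -0.14 with prednisolone and -0.07 with dexamethasone in Nalm6. CA11 lies next to DBP on the same strand, from 48637942 to 48646312. Of THRA, SPHK2 and CA11, checked as neighbours, 1 rose and 2 fell with prednisolone in Nalm6, where 54.8% of all genes were called. With dexamethasone 1 rose and 1 fell, where 60.5% were called. Whether the DBP counts depend on its neighbours was not tested.

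**Figure D2:**
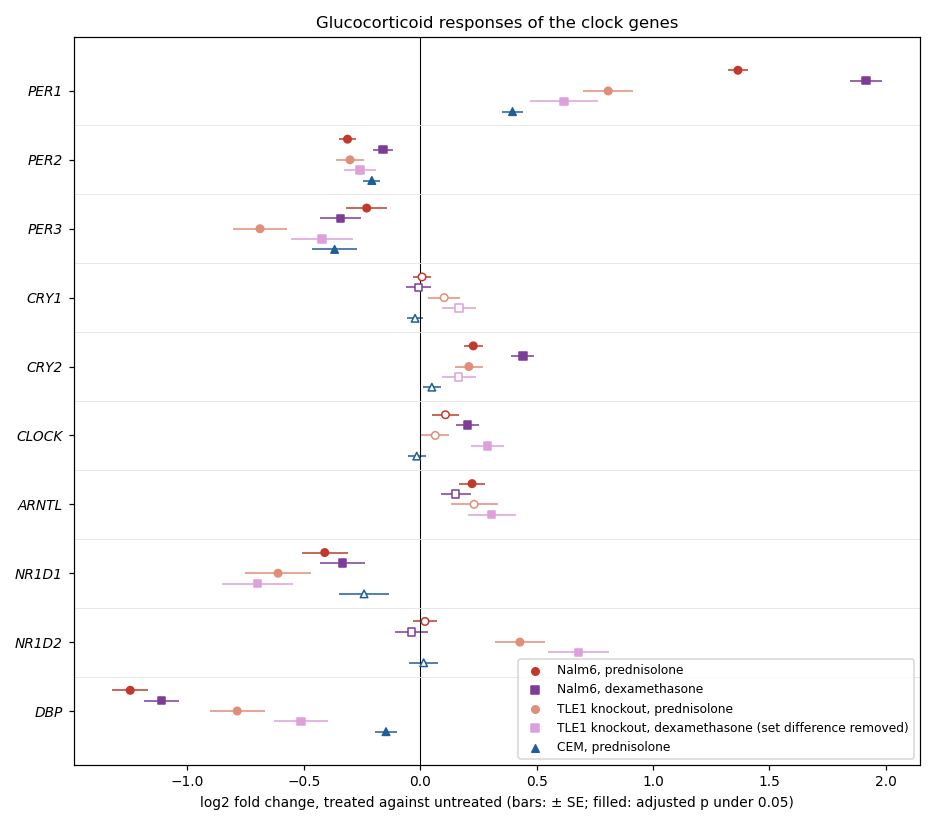
Log2 fold change of each clock gene with glucocorticoid against untreated cells (x axis; bars ± SE, filled symbols adjusted p under 0.05) by gene (y axis) in 5 comparisons. PER1 lies at 0.40 to 1.91 and DBP at -1.25 to -0.15, while the CRY1 symbols stay between -0.02 and 0.17.

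Over the 11 groups, the genes whose group means ran most like those of PER1 were TMUB2, SBF1 and MIR22HG, with Pearson r of 0.981, 0.978 and 0.975 on log2(CPM + 0.5). For DBP they were ECI2, PSMG2 and RPA3, with r of 0.981, 0.968 and 0.965. These coefficients describe 11 means that share lines and controls, and the genes were picked for them. As a check that the drug reached the receptor in the 4 comparisons that share no library, TSC22D3 (GILZ), a direct glucocorticoid target, was read. In Nalm6 it rose by 3.99 on the log2 scale with prednisolone and by 5.23 with dexamethasone. With prednisolone it rose by 4.37 in TLE1 KO and by 5.96 in CEM. FKBP5, a chaperone of the receptor, rose by 1.67, 2.68, 1.01 and 2.44 in the same order, and NR3C1, the receptor gene, by 1.18, 1.26, 1.26 and 1.54. ZBTB16, a further target, also rose in all 4, to 27.3, 31.0 and 29.2 CPM with prednisolone in Nalm6 and to 3.96, 3.47 and 3.53 CPM in CEM, from at most 0.325 CPM in any of their untreated libraries. KLF9 rose in the 3 comparisons where it was tested. In the test of CEM minus Nalm6 with prednisolone, 3 of these 5 genes (TSC22D3, FKBP5 and NR3C1) responded more in CEM. ZBTB16 responded less there (adjusted p = 4.29e-08). KLF9 was not called (adjusted p = 0.788), but it held at most 2 counts in any untreated CEM library. It was too low to test in CEM alone, so its missing call cannot show that the lines responded alike.

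Whether the knockout or the line changed the response was tested as a difference of log2 fold changes. For prednisolone, TLE1 KO minus parental, 1 of 10 members was called, against 3.48% of all genes. It was PER1, whose response was smaller in the knockout by -0.53 ± 0.12 (adjusted p = 0.0239). The call was lost in 6 of 19 alternatives, each the omission of 1 library, with adjusted p from 0.0575 to 0.0748: prednisolone-treated TLE1 KO replicate 2, untreated TLE1 KO replicate 2, prednisolone-treated Nalm6 replicate 3, and each of the 3 Nalm6_Ctrl libraries. The differences of NR1D2 (0.43, adjusted p = 0.0727) and DBP (0.49, adjusted p = 0.075) missed the threshold. In the alternatives NR1D2 gained a call 4 times and DBP 5 times. Both were called with DESeq2 (adjusted p = 0.0347 and 0.04) and in the unfiltered fit (0.00384 and 0.0462). Both were also called with all 11 groups in 1 fit (0.0138 and 0.00973). With unstranded counts the DBP difference was 0.33 (0.296). FKBP5 also responded less in TLE1 KO, by -0.64 (adjusted p = 0.00135), while TSC22D3 did not pass the test (0.41, adjusted p = 0.0541). For CEM minus Nalm6, where the doses were 10 and 5 µM, 3 of the members were called against 26.9% of all genes. The response of PER1 was smaller in CEM by -0.96 ± 0.07 (adjusted p = 1.18e-10) and that of DBP was less negative by 1.11 ± 0.09 (adjusted p = 3.74e-10). CRY2 differed by -0.17 ± 0.06 (adjusted p = 0.0364), a call lost in 13 of 19 alternatives. Line, dose and file series cannot be told apart in this difference.

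TLE1 KO cells with dexamethasone were read against untreated TLE1 KO cells after taking out the difference between the untreated Nalm6 sets. These values share untreated libraries with the comparisons above. On this scale 8 of 10 members were called, 4 higher and 4 lower, against 40.0% of all genes (18.5% higher, 21.5% lower). PER1 was at 73.2, 65.6 and 65.4 CPM, above every untreated TLE1 KO library, with a log2 fold change of 0.62 ± 0.15 (adjusted p = 0.00316). NR1D2 was at 33.4, 33.1 and 32.4 CPM (0.68, adjusted p = 0.000603) and NR1D1 at 5.05, 3.91 and 4.44 CPM (-0.70, adjusted p = 0.0016). DBP was at 9.54, 8.58 and 9.42 CPM, overlapping the untreated TLE1 KO libraries. Its fall of -0.51 (adjusted p = 0.00255) was -0.18 (adjusted p = 0.155) where the set difference was left in. CLOCK turned from 0.29 (adjusted p = 0.0045) to -0.075 (adjusted p = 0.346) in that reading. CRY1 was not called with the set difference taken out, but it gained a call in 4 alternatives. Where the set difference was left in, CRY1 rose by 0.33 (adjusted p = 0.00149), at 73.2 to 76.7 CPM against 55.8 to 63.9 untreated. With the set difference taken out, PER2 and PER3 fell by 0.26 and 0.42. ARNTL rose by 0.31 (adjusted p = 0.0277), a call that the omission of any of 5 libraries ended (adjusted p 0.0529 to 0.0772): dexamethasone replicates 1 and 3, untreated TLE1 KO replicate 2, Nalm6_Dex_Ctrl replicate 3 and Nalm6_Ctrl replicate 3. For PER3, dexamethasone replicate 1 and untreated replicate 2 of TLE1 KO each did so (0.0573 and 0.0547).

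A difference of dexamethasone responses, added after the data were seen, set TLE1 KO against parental cells with both read against Nalm6_Ctrl and TLE1 KO untreated libraries. It called 5 of 10 members, 2 higher and 3 lower, against 30.3% of all genes (13.7% higher, 16.6% lower). The PER1 response was smaller in the knockout by -1.30 ± 0.12 (adjusted p = 4.65e-07), and PER1 stood at 65.4 to 73.2 CPM in TLE1 KO against 147 to 153 CPM in Nalm6. NR1D2 differed by 0.71 (adjusted p = 0.000333) and DBP by 0.59 (adjusted p = 0.000882), toward a higher level in the knockout. CRY2 differed by -0.28 (adjusted p = 0.00525) and NR1D1 by -0.37 (adjusted p = 0.0473), the last lost in 16 of 19 alternatives. Of the 5 glucocorticoid reference genes, 2 responded less in the knockout and none more, with a median difference of -0.36. All 5 rose with dexamethasone in each. Their median log2 fold change was 2.68 in Nalm6, and 1.31 in TLE1 KO with the set difference taken out. The reading assumes that a difference between file series acts alike on both lines, and the TLE1 KO dexamethasone files are numbered apart from the Nalm6 ones.

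**Figure D3:**
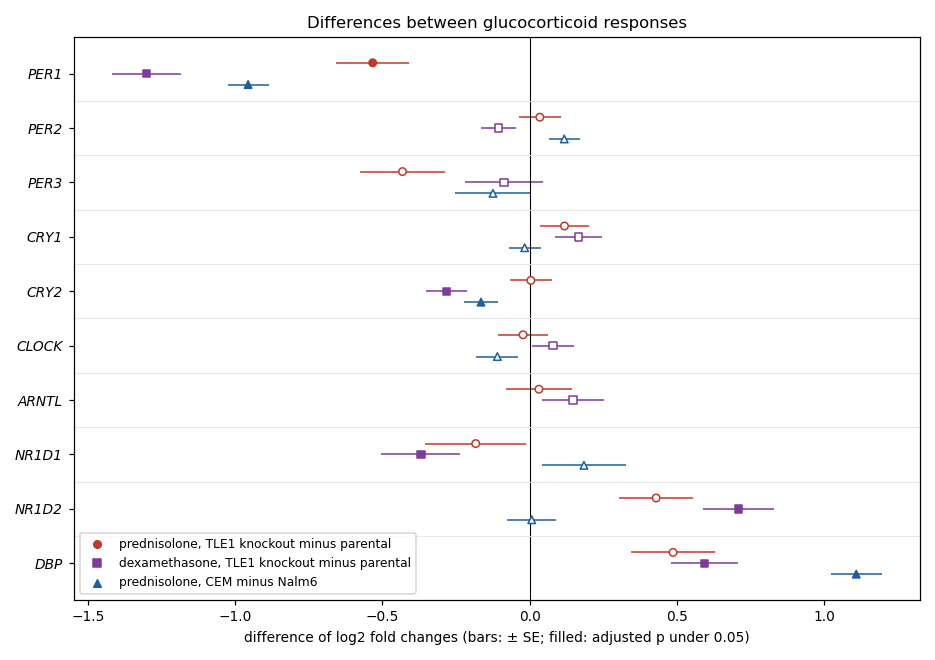
Difference between glucocorticoid responses of each clock gene (x axis, difference of log2 fold changes; bars ± SE, filled symbols adjusted p under 0.05) for TLE1 KO minus parental with each drug and CEM minus Nalm6 with prednisolone. PER1 is on the negative side in all 3 (-0.53, -1.30 and -0.96) and DBP on the positive side (0.49, 0.59 and 1.11, the first not called); the differences share Nalm6_Ctrl libraries, and ARNTL in CEM is not drawn.

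The line difference in the untreated state was largest for ARNTL. The 24 Nalm6 and TLE1 KO libraries held 344 to 904 ARNTL counts each, at 10.5 to 17.6 CPM, and the 9 CEM libraries held 2 counts in all, with 8 of them at 0. Set against a floor of 3 counts per library, ARNTL was at least 198-fold lower in untreated CEM than in Nalm6_Dex_Ctrl, and at least 182-fold lower than in Nalm6_Ctrl. The other strand of the gene held 29 to 78 counts in each CEM library; where in the gene these reads lie was not examined. ARNTL2, the paralogue of ARNTL that can also pair with CLOCK, was at a mean of 10.6 CPM in untreated CEM against 1.16 in Nalm6_Dex_Ctrl (n = 3 each, with no overlap), a log2 difference of 3.17 (adjusted p = 1.39e-11). It held at most 3 counts in any untreated TLE1 KO library, at least 7.73-fold lower than in Nalm6_Ctrl. The ROR receptors, which activate ARNTL, also divided the lines. RORB was at 81.0 CPM in untreated CEM, at least 993-fold higher than in Nalm6_Dex_Ctrl, where no library had more than 1 count, and RORA at 5.71 CPM was at least 70.0-fold higher. ARNTL2, RORA and RORB were picked out after their values were seen.

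For the other members the differences of untreated CEM from Nalm6 were smaller than that of ARNTL. Against Nalm6_Dex_Ctrl, 7 members including ARNTL were called, where 77.5% of all genes were called. DBP was higher in CEM by 0.62 on the log2 scale, at 23.1, 22.4 and 22.5 CPM against 14.2, 13.6 and 15.4. CRY1 (0.23) and CRY2 (0.25) were higher, and PER3 (-0.42) and NR1D2 (-0.43) lower. CLOCK was higher by 0.31, but with Nalm6_Ctrl as the reference the difference was -0.027 (adjusted p = 0.55). With that reference PER1 was higher in CEM by 0.40 (adjusted p = 9.29e-07) and PER2 was lower (-0.30, adjusted p = 9.61e-07), where against Nalm6_Dex_Ctrl their differences of 0.08 and -0.09 were not called. The Nalm6 sets themselves differed: with no drug in either, 9 of 10 members differed between them, against 50.2% of all genes, CLOCK by -0.37, DBP by 0.33 and PER1 by 0.29 (Nalm6_Dex_Ctrl minus Nalm6_Ctrl). PER3 alone was not called between the sets in this fit, which did not pair libraries by number. Untreated TLE1 KO against Nalm6_Ctrl called 1 member, against 27.1% of all genes: PER3 was higher by 0.32 ± 0.10 (adjusted p = 0.0345), at 9.14, 10.4 and 8.19 CPM against 7.23, 7.77 and 7.59. This call was lost with the replicate block (adjusted p = 0.0588) and without TLE1 KO replicate 2 (0.103) or any 1 of the Nalm6_Ctrl libraries (0.0863 to 0.126).

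**Figure D4:**
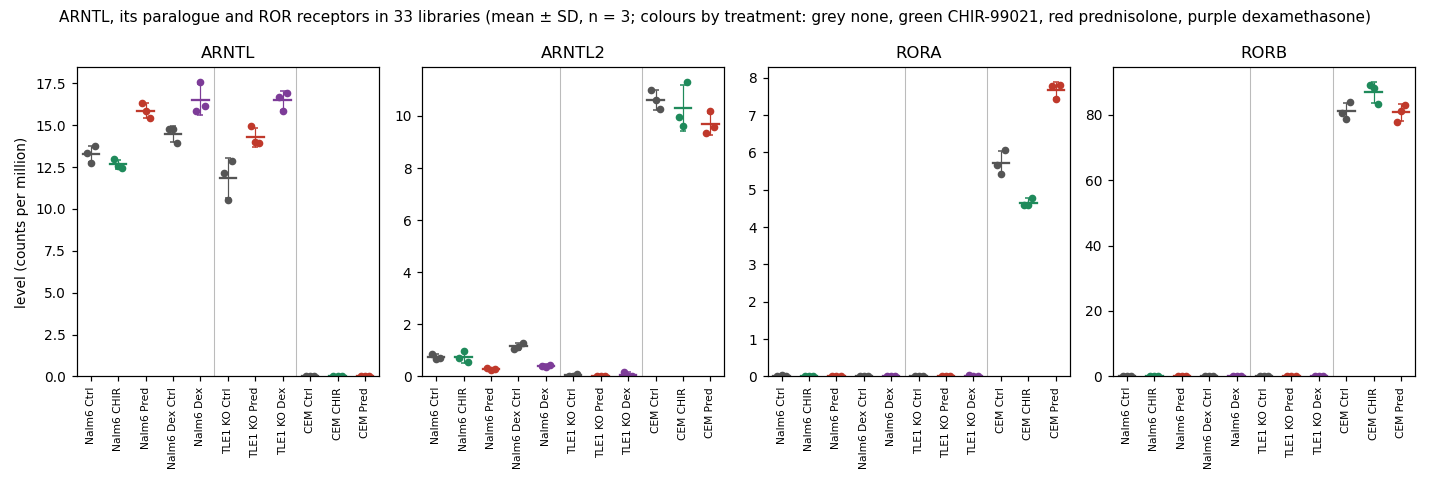
Levels in CPM (y axis, linear, from 0) of ARNTL, ARNTL2, RORA and RORB in each of 33 libraries by group (x axis); points are libraries and bars mean ± SD, n = 3. CEM libraries lie at or next to 0 for ARNTL and above all Nalm6 and TLE1 KO libraries for the other genes, with RORB at a mean of 81.0 in untreated CEM.

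The wider clock network, 26 genes that act with the members, was tested in the same fits. With prednisolone in Nalm6, 6 of 22 tested genes rose and 8 fell, with dexamethasone 8 rose and 8 fell of 22. In TLE1 KO with prednisolone 2 rose and 7 fell of 20, and in CEM with prednisolone 5 rose and 4 fell of 24. The shares of all genes called in these comparisons were 54.8%, 60.5%, 41.7% and 45.1%, so the network's counts are not read as particular to it. The median log2 fold change of the network was 0.03, 0.06, -0.07 and -0.0010 in this order, beside 0.03, 0.02, 0.00 and 0.02 over all genes tested. Among the 10 kinases and ligase subunits that tag PER and CRY proteins for turnover, 4 rose and none fell with prednisolone in Nalm6, 6 rose and 1 fell with dexamethasone, 2 rose in TLE1 KO, and 2 rose and 1 fell in CEM. Of all genes tested, 28.7%, 30.2%, 19.8% and 22.3% rose in the same order. GSK3B, a kinase of clock proteins and the target of CHIR-99021, went from 38.3, 40.0 and 39.5 CPM to 95.8, 98.3 and 98.7 CPM with dexamethasone in Nalm6 (1.28 ± 0.04, adjusted p = 4e-12). With prednisolone it rose by 0.76 in Nalm6, by 0.68 in TLE1 KO and by 0.14 in CEM, the last call lost with all 11 groups in 1 fit (adjusted p = 0.112) and without CEM_Ctrl replicate 1 (0.101) or prednisolone replicate 3 (0.0626).

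TIMELESS and TIPIN, a pair that also protects replication forks, both fell in all 4 comparisons. TIPIN went from 35.7, 32.7 and 35.0 CPM to 20.0, 18.9 and 17.5 CPM with prednisolone in Nalm6 (-0.91) and fell by 1.08 with dexamethasone, by 0.80 in TLE1 KO and by 0.31 in CEM. Of the 4 clock-controlled outputs, 3 fell with each drug in Nalm6 and in TLE1 KO with prednisolone, and 1 in CEM, where 26.1%, 30.2%, 21.9% and 22.8% of all genes fell. The E-box repressor BHLHE40 (DEC1) fell in TLE1 KO with prednisolone, from 26.8, 22.1 and 17.9 CPM to 13.1, 10.8 and 9.90 CPM (-1.01, adjusted p = 0.000348). It also fell in parental Nalm6 with prednisolone (-0.45, adjusted p = 0.0192), a call lost in 3 of 13 alternatives: with all 11 groups in 1 fit (0.077) and without prednisolone replicate 2 (0.0769) or Nalm6_Ctrl replicate 3 (0.159). The difference between those responses was not called (-0.53, adjusted p = 0.278). In CEM it rose by 0.32 (adjusted p = 0.00107), a call lost with all 11 groups in 1 fit (0.214).

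NFIL3, a repressor that binds the same D-box elements as DBP, showed its largest rise in CEM. It was at 5.55, 5.44 and 5.38 CPM in untreated CEM and at 27.1, 27.0 and 28.1 CPM after prednisolone, with no overlap (2.29 ± 0.06, adjusted p = 1.9e-15). In Nalm6 it rose by 0.39 with prednisolone and by 0.54 with dexamethasone. The CEM response exceeded that of Nalm6 by 1.92 (adjusted p = 5.78e-16), again at unequal doses. In TLE1 KO it was at 30.1, 29.3 and 29.5 CPM after prednisolone against 33.7, 35.4 and 33.2 (-0.24, adjusted p = 0.0116), a call lost without prednisolone replicate 2 (0.0662) or 3 (0.0518). That response was below the parental one by -0.61 (adjusted p = 0.000162).

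**Figure D5:**
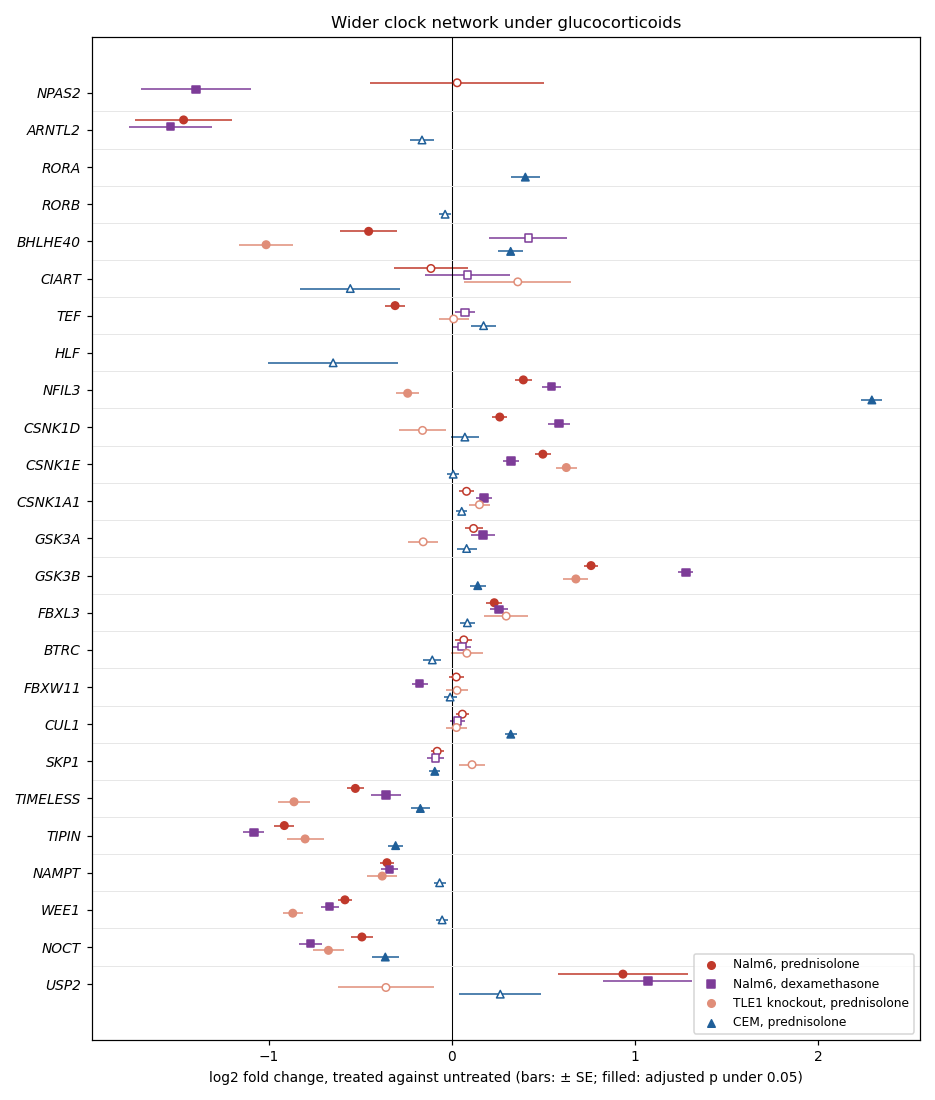
Log2 fold change with glucocorticoid against untreated cells (x axis; bars ± SE, filled symbols adjusted p under 0.05) for genes of the wider clock network (y axis) in 4 comparisons that share no library; genes too low to test in a comparison have no symbol there. NFIL3 in CEM stands at 2.29 and GSK3B in dexamethasone-treated Nalm6 at 1.28, while TIPIN is at -0.31 or lower in all 4.

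CHIR-99021 was the Wnt agonist of the study, and its comparisons share their untreated libraries with those of prednisolone in the same line. Few genes were called in them, members or not, so the counts are not read as particular to the members. In Nalm6 at 0.5 µM, 1 of 10 members was called, against 7.88% of all genes: NR1D2 was at 19.5, 19.0 and 22.0 CPM against 26.0, 25.2 and 23.5 untreated, with no overlap (-0.30 ± 0.07, adjusted p = 0.0198). The call was lost with the replicate block (adjusted p = 0.0514) and without CHIR-99021 replicate 1 or 2 or any 1 of the 3 Nalm6_Ctrl libraries (0.0535 to 0.0993). PER1 was at 32.1, 35.0 and 25.2 CPM, and the third of these libraries also stood apart for FKBP5 (59.9 CPM against 113 and 117). That library differed from the others across genes as well. Set against counting noise, its pairs with replicates 1 and 2 had a chi-square per degree of freedom of 42.1 and 43.7. Replicates 1 and 2 had 5.77 between them. In CEM at 2 µM, 2 of 9 tested members were called, against 10.8% of all genes. NR1D2 went from 16.5, 14.9 and 16.2 CPM to 9.94, 9.95 and 9.10 CPM, with no overlap and no alternative that ended the call (-0.69 ± 0.07, adjusted p = 6.91e-05). DBP went from 23.1, 22.4 and 22.5 CPM to 16.9, 16.7 and 20.2 CPM (-0.32 ± 0.07, adjusted p = 0.012), a call lost without CHIR-99021 replicate 2 (0.0704) or CEM_Ctrl replicate 1 (0.0526). The doses differed between the lines, so the NR1D2 values stand side by side. Of the wider network, 2 genes rose and none fell of 22 in Nalm6, and 4 rose and none fell of 24 in CEM, beside the 7.88% and 10.8% of all genes called.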

How the data were processed

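Gene counts of 33 libraries were used as deposited by the authors, 3 in each of 11 titled groups. Per the file layout the tables hold unstranded counts and counts of each strand; 1 of the strand columns held 12.3 to 15.3 times the other and was taken as the sense strand. The submitters' processing notes name hg19, Bowtie2 and DESeq2, without versions; the counting program is not given in the sources used here. Reads counted as unmapped (2.84 to 11.2% of the reads listed), multimapping, without a feature or ambiguous were left out of library totals. CPM were computed from the gene totals. Symbols came from the supplied name table, transcript lengths and overlaps from GENCODE 29 on GRCh38, and promoter windows from RefSeq.

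Each comparison was fitted with edgeR 4.0.16 in R 4.3.3 (filterByExpr, TMM, quasi-likelihood test, Benjamini-Hochberg over all genes tested), on its own groups; the script was tested on simulated data. SE was the log2 fold change over the root of its F. Alternatives used edgeR's RLE factors, DESeq2 1.42.0, a fit of unfiltered genes, a minimum of 10 counts per library, unstranded counts, 1 fit of all groups, a replicate block and the omission of each library. The members and lists were chosen with earlier results of these data known. Every member was described; genes of the lists were named if called with a log2 fold change of at least 1 in size and a mean log2 CPM of at least 1 in a glucocorticoid comparison with untreated cells of the line, or if they were reference genes, neighbours or TLE1. A further gene of the lists is not reported here. The design text names 3 independent experiments for CHIR-99021 in Nalm6 and prednisolone in TLE1 KO; for the other groups nothing says whether cultures were separate, so p-values measure the spread between these libraries, which may be technical. None of the replicate pairs agreed within counting noise (chi-square per degree of freedom 1.85 to 43.7), so none were merged. Same-numbered libraries of the untreated Nalm6 sets correlated by 0.364, 0.108 and 0.254 in their deviations from group means. All are over 0.1, the rule by which sets count as paired by number, and no other comparison met it. The reported comparison of those 2 sets did not use the pairing. The replicate block, which did, called 9 members and 9397 genes.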

Additional observations from a re-analysis of the deposited data

Results flagged for a closer look

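Responses of 5 clock genes differed between cells under the same kind of contrast, by a test of the difference itself in edgeR. With prednisolone, PER1 responded less in TLE1 KO than in parental Nalm6 (-0.53 on the log2 scale) and less in CEM than in Nalm6 (-0.96). With prednisolone in CEM against Nalm6, CRY2 also differed by -0.17 and DBP by 1.11. With dexamethasone in TLE1 KO against parental cells, the differences were -1.30 for PER1, -0.28 for CRY2, -0.37 for NR1D1, 0.71 for NR1D2 and 0.59 for DBP, a comparison that was chosen with the data in view. The contrasts share Nalm6_Ctrl libraries, so they are not separate observations. Of all genes, 3.48% were called in the prednisolone difference of TLE1 KO, 26.9% in that of CEM and 30.3% in the dexamethasone difference. Nothing particular to the members is read from the number called. The PER1 call with prednisolone in TLE1 KO was lost in 6 alternatives, the CRY2 call in CEM in 13 and the NR1D1 call in 16. No group was large enough for a search for single outlying libraries.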

How the results depend on the processing

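With glucocorticoid in Nalm6 and prednisolone in TLE1 KO, the calls of PER1, PER2 and DBP held in all 13 alternatives of each comparison, as did those of PER1, PER2 and PER3 with prednisolone in CEM. Over the members and all alternatives, 1737 fits either kept a call in its direction or stayed uncalled within 1 SE of the reported value, whatever their sign; 86 lost a call, 45 gained one, 21 uncalled fits moved by more than 1 SE and 2 turned. The replicate block left no clock gene called for CHIR-99021 in Nalm6 (0, with 925 genes in all) and for untreated TLE1 KO against Nalm6 (0), ended the CRY2 call of prednisolone in TLE1 KO (adjusted p = 0.0638) and the NR1D1 difference with dexamethasone (0.0626), and added NR1D1 between untreated CEM and Nalm6 (8 members called). In the untreated Nalm6 sets, which count as paired by number, it called 9397 genes in place of the 8774 of the reported unpaired fit. With all 11 groups in 1 fit, untreated TLE1 KO against Nalm6 called 2 members, and the prednisolone difference of TLE1 KO and parental cells 4 members and 1277 genes. That difference had 3 members with DESeq2, and 3 members and 981 genes without a filter. CHIR-99021 in Nalm6 called 2320 genes without a filter. With the set difference left in, TLE1 KO under dexamethasone gave -0.075 for CLOCK, 0.33 for THRA and 0.33 for CRY1, the last a call gained. CLOCK in CEM against Nalm6_Ctrl gave -0.027. Same-numbered libraries of prednisolone in Nalm6 correlated best with their own number in 6 of 6 cases, a hint from the data only. Leaving out 1 library at a time, the number of members called ranged from 6 to 7 with prednisolone in Nalm6 (all genes 9243 to 10133), from 7 to 8 with dexamethasone in Nalm6 (all genes 9531 to 10734), from 6 to 8 with prednisolone in TLE1 KO (all genes 5464 to 7321), from 6 to 9 with dexamethasone in TLE1 KO (all genes 6142 to 7308). It ranged from 3 to 5 with prednisolone in CEM (all genes 6798 to 7884), from 0 to 2 with CHIR-99021 in Nalm6 (all genes 409 to 2708), from 1 to 3 with CHIR-99021 in CEM (all genes 1001 to 1948), from 0 to 3 between untreated TLE1 KO and Nalm6 (all genes 2804 to 6732). It ranged from 0 to 3 for the prednisolone difference of TLE1 KO and parental cells (all genes 361 to 1852), from 2 to 4 for that of CEM and Nalm6 (all genes 4833 to 5740), from 7 to 9 between untreated CEM and Nalm6 (all genes 13443 to 14119), from 6 to 9 between the untreated Nalm6 sets (all genes 7227 to 9378). It ranged from 4 to 7 for the dexamethasone difference (all genes 4596 to 7046).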
